A study of Mus musculus with 31 samples.

Results

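The comparison of IMN administered Brd1+/- mice with IMN administered WT mice in CPu covered 16 of the 31 mice of the series, 8 of each genotype. The mice were chosen by genotype and treatment alone, and no expression value entered the choice. All 16 were labelled female, of the strain C57BL/6NTac-Brd1, at 8 to 11 weeks of age. Each mouse received imipramine (IMN), a tricyclic antidepressant, at 10 mg/kg. It was injected subcutaneously on 2 days. A tail suspension test followed the first injection, and an open field and a forced swim test followed the second. The brain was taken 1 hour after the swim, so the controls carried the drug and these tests as well. Brd1+/- mice come from 1 line, heterozygous for a targeted deletion in Brd1 that was made with loxP sites around exons 3 to 5, and WT mice were litter-matched. The other 15 mice, 8 WT and 7 Brd1+/-, were administered saline as vehicle and are used here only to set the same genotype difference beside the one under IMN. The 2 comparisons share no mouse, and each mouse gave its own library. Tissue was punched from the right CPu, the caudate putamen, which is the dorsal part of the striatum, and a punch holds all of its cell types. A lower level can mean fewer cells of a type or less RNA per cell, and bulk tissue cannot tell these apart. Every level below is in TPM, a unit that corrects the reads of a gene for its length and sets all genes of a mouse to about the same total, and every log2 fold change is on the log2(TPM + 1) scale, which understates changes of low genes.

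BRD1 is a scaffold protein that joins histone acetyltransferases of the MYST family, such as KAT7 (HBO1) and KAT6A (MOZ), to ING and MEAF6 subunits and directs the complex to acetylate histone H3 at chromatin. Acetylation of histones by such complexes is known to keep genes open for transcription, and histone deacetylases remove it. IMN blocks the reuptake of noradrenaline and serotonin, whose transporters are made in brainstem neurons and carried to the terminals in striatum, and it also binds muscarinic, histamine and adrenergic receptors. Most neurons of CPu are GABAergic projection neurons that carry dopamine receptors and respond to strong stimulation with a wave of immediate early genes.

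Brd1 lies on chromosome 15 (chr15:88687034-88734233, minus strand, GRCm38). The 250 bases before its RefSeq start, chr15:88734220-88734469 on GRCm38.p6, are shown 5' to 3' along the minus strand because they are the promoter region of the gene that was targeted, and Brd1 is the gene on which the comparison turns. Capitals mark GC boxes, the letters GGGCGG read on either strand, and the first pair of them overlaps.

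Brd1: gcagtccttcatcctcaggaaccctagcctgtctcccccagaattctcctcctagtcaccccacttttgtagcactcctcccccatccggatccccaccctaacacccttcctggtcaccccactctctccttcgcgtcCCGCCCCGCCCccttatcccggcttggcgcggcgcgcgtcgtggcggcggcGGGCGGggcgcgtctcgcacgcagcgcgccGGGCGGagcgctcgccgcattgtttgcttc

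This stretch held 4 GC boxes, 27 CpG dinucleotides and 68.4% G and C. A GC box was found in 32.7% of all 32851 RefSeq windows of the same length. The cAMP response element TGACGTCA, the shorter TGACG and the E-box CACGTG, each read on both strands, were not in this window and were found in 1.55%, 17.8% and 6.02% of the windows. These are descriptions of letters, and no binding was measured.

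Brd1 was the check on the genotype labels. In IMN administered WT mice it ranged from 14.6 to 22.5 TPM with a median of 21, and in IMN administered Brd1+/- mice from 11.3 to 13.8 TPM with a median of 12.9. All 8 Brd1+/- mice lay below all 8 WT mice. The means were 19.9 ± 2.67 (SD, n = 8) and 12.8 ± 1.04 TPM (SD, n = 8; exact permutation test of the means, two-sided p = 0.000155, the smallest that 12870 regroupings can give). The Brd1+/- mean was 64.0% of the WT mean, with a log2 fold change of -0.60 (SE 0.08; limma, adjusted p = 0.0396). In vehicle administered mice, Brd1 was at 22.5 ± 2.97 TPM in WT and 13.4 ± 2.02 TPM in Brd1+/- mice. The genotype difference under IMN departed from that under vehicle by 0.11 on the log2 scale (95% interval -0.15 to 0.38). TPM counts the whole gene, so transcripts of the targeted allele that keep other exons add to these values.

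**Figure D1:**
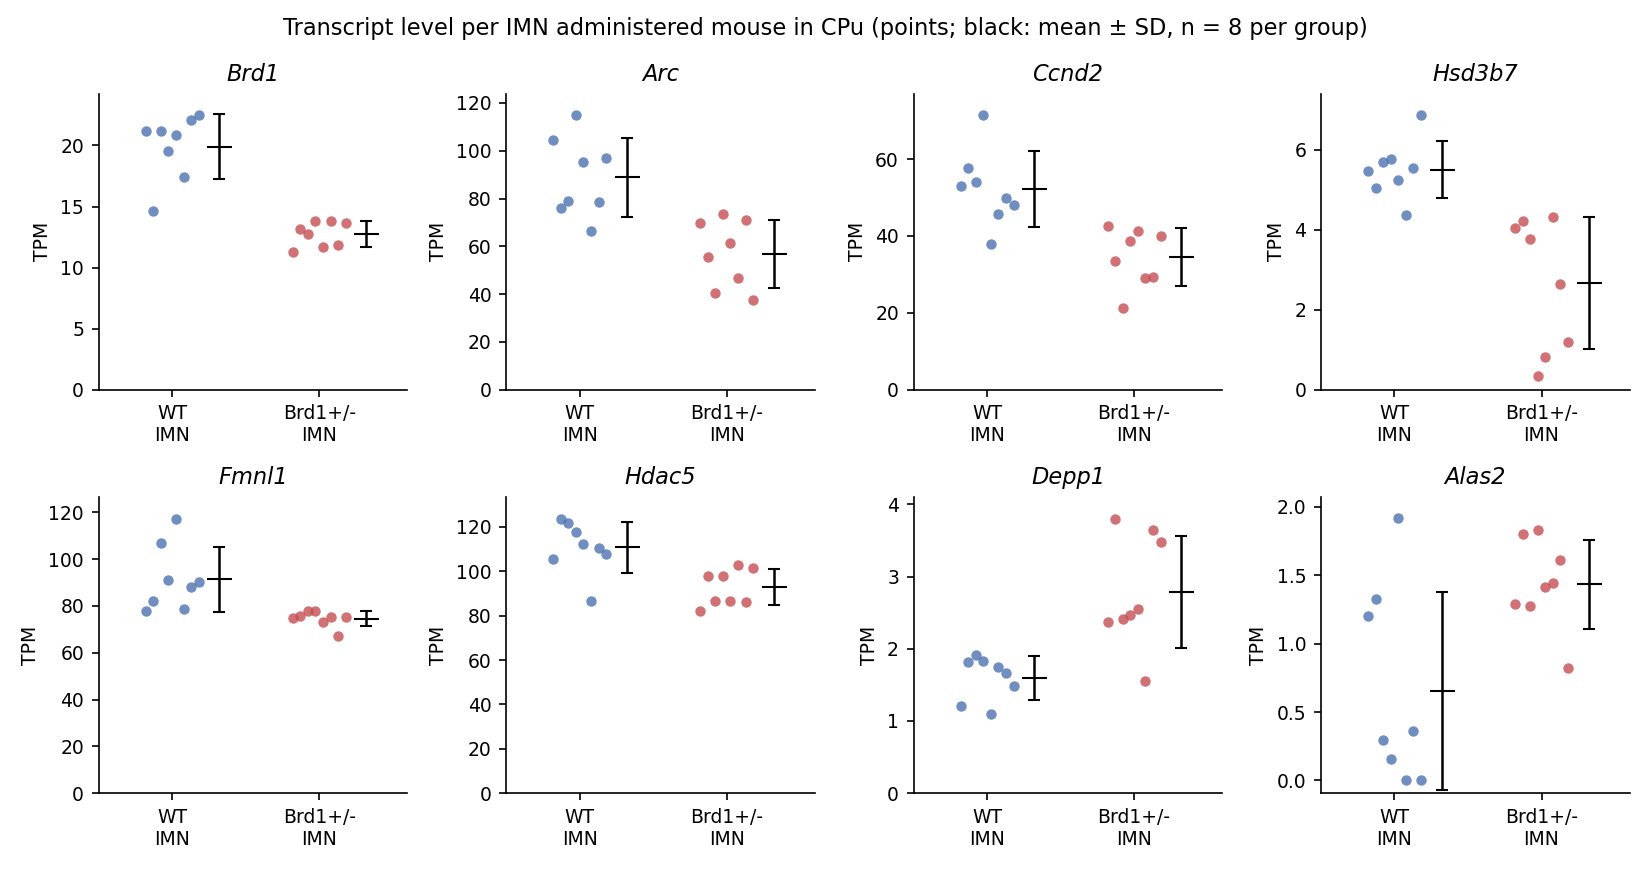
Level in TPM (vertical axes, linear) of 8 genes in each IMN administered WT mouse (blue) and Brd1+/- mouse (red), with the mean and SD in black (n = 8 per group). Brd1 and Hsd3b7 show no overlap between the genotypes, Arc, Ccnd2, Fmnl1 and Hdac5 are lower with some overlap, and Depp1 and Alas2 are higher with overlap.

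The 16 IMN libraries were alike, with correlations between 0.981 and 0.991 on the log2(TPM + 1) scale over all genes, a description, since all share tissue and laboratory. Their 4 measured Y-linked genes summed to at most 0.0893 TPM, as the female label requires, with Xist between 97.7 and 157 TPM. The depth of the libraries is unknown, since the files give TPM and no counts. Ppp1r1b, the DARPP-32 gene that defines striatal projection neurons, was at 1857 to 3371 TPM in the 16 mice, lowest in WT mouse 5. WT mice 5 and 8 stood apart from the other 14 by markers of cortical excitatory neurons. Their cortical score, the mean log2(TPM + 1) of 10 markers, was 5.53 and 5.00 against at most 4.35 in the other mice. Slc17a7, the vesicular glutamate transporter of cortical neurons, was at 809 and 265 TPM in them and between 3.56 and 286 TPM in the others, and Neurod6 was at 77.5 and 56.0 TPM against at most 20.4. The number of genes called, the functional gene lists and the named genes that lost their call are given below without these 2 mice as well. Among the vehicle groups, WT mouse 7 held 26.8 TPM of the Y-linked genes and 79.2 TPM of Xist, against at most 0.188 TPM of the Y-linked genes in the other 30 mice, and this goes against its female label.

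**Figure D2:**
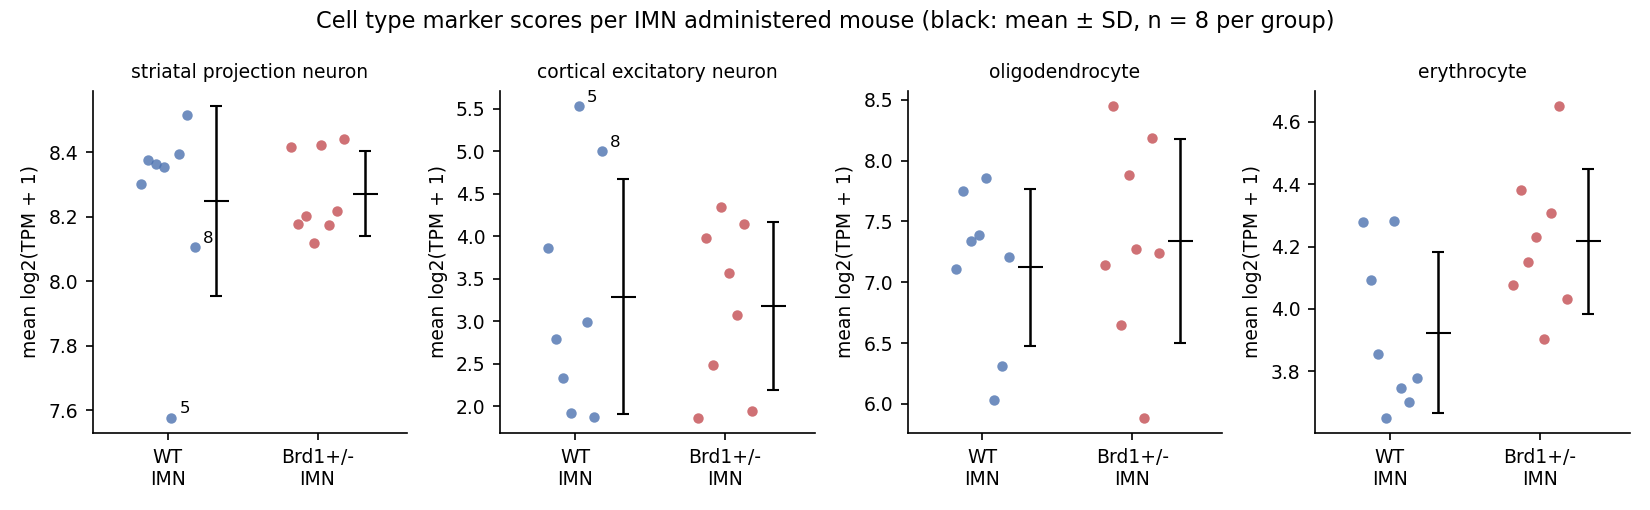
Cell type scores, each the mean log2(TPM + 1) of a marker list (vertical axes), in each IMN administered WT mouse (blue) and Brd1+/- mouse (red), with the mean and SD in black (n = 8 per group). WT mice 5 and 8, labelled in the striatal and cortical panels, have the highest cortical scores, at 5.53 and 5.00, and mouse 5 has the lowest striatal score, at 7.58. The erythrocyte score is higher in Brd1+/- mice by 0.293.

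Few transcripts separated the genotypes under IMN. Of 23339 genes tested, 164 had a nominal p under 0.01 (0.703%), where 233 would be met if all genes were independent and none changed. Of these, 120 were lower in Brd1+/- mice (0.514% of the genes tested) and 44 were higher (0.189%). At an FDR of 5% the single DEG was Brd1 (0.00428% of the genes tested). That call held in 8 of 12 alternatives and in 2 of 16 fits without 1 mouse, those without WT mouse 2 or WT mouse 6, and leaving out any other mouse put its adjusted p between 0.0523 and 0.142 (limma). Without WT mice 5 and 8, 168 genes had a p under 0.01 and none passed the FDR, with Brd1 at a log2 fold change of -0.56 (limma, adjusted p = 0.364). The count was 252 without WT mouse 2 and 251 without Brd1+/- mouse 3. The excess of lower over higher calls moved with scaling. In the values as deposited, 73.2% of the calls were lower, and after median-of-ratios scaling between mice 56.7% of 157 calls were, while the median of all genes tested was -0.03 and -0.0006. The same test under vehicle called 3153 of 23200 genes (13.6%), 12.1% lower and 1.47% higher, and 0 of them passed the FDR. With the cortical score as a covariate it called 437 there, 407 lower and 30 higher. Without the covariate, 26.2% of the genes tested under vehicle were lower and 4.68% higher at a p under 0.05.

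Changes were small in size. The median absolute log2 fold change of the 164 genes was 0.36, and 7 of them reached 1. For the 17261 genes with a mean of at least 1 TPM, the 95% interval of the log2 fold change had a median width of 0.463 from its lower to its upper bound. Over genes of this level, the median absolute genotype difference was 0.0745 under IMN and 0.214 under vehicle. Of the 164 genes, 63 were below a mean of 1 TPM and 21 were listed at 0 in at least 4 mice of a group. Protein coding genes made up 53.0% of the calls and 63.9% of the genes tested.

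**Figure D3:**
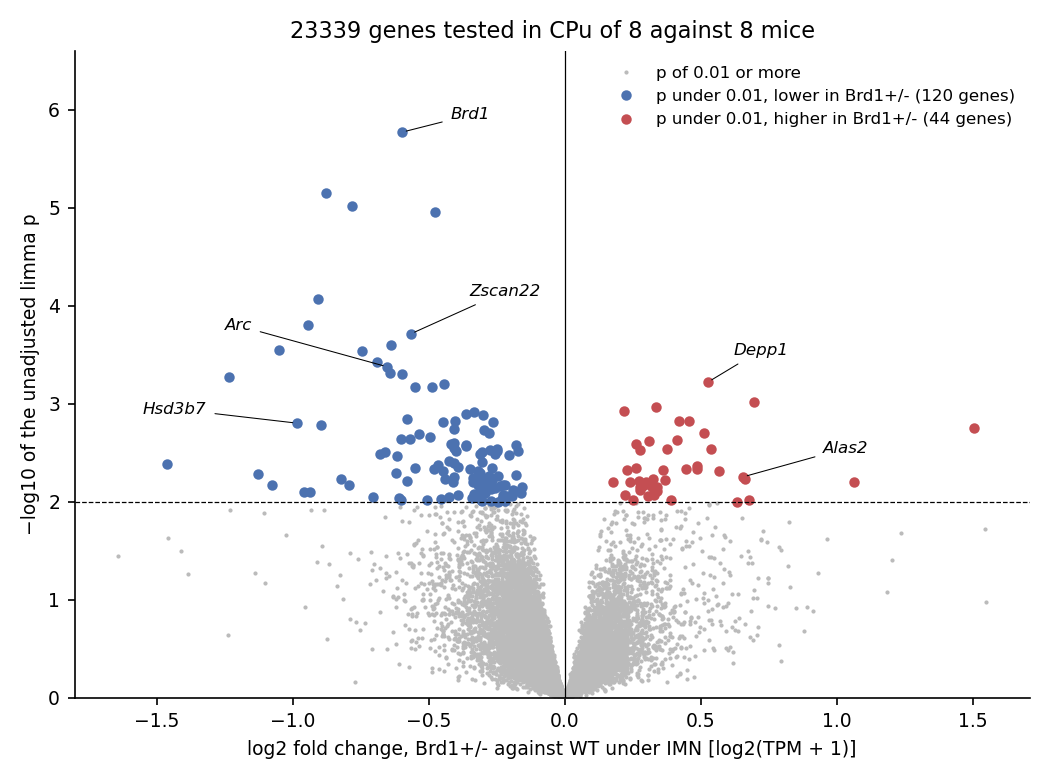
Log2 fold change of Brd1+/- against WT mice under IMN (horizontal axis) against the −log10 of the unadjusted limma p (vertical axis) for 23339 genes, 8 against 8 mice. The dashed line marks a p of 0.01, with 120 lower genes in blue and 44 higher genes in red, and Brd1 lies above all others.

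Of the 164 genes, 3 had no overlap between the groups, all lower in Brd1+/- mice (0.0129% of the genes tested). No gene lay above in all mice. A separation of this kind, in either direction, has an exact permutation p of 0.000155 for a single gene. With 23339 genes tested some are to be met by chance, so the count of 3 is a description. Brd1 was the first of the 3. Hsd3b7, an enzyme of bile acid synthesis that also handles hydroxylated cholesterol, ranged from 4.36 to 6.86 TPM in WT mice (median 5.51) and from 0.337 to 4.31 TPM in Brd1+/- mice (median 3.20). Its mean was 48.5% of WT (log2 fold change -0.98, SE 0.26, limma adjusted p = 0.998). Its exact permutation p of 0.000155 is that of any gene without overlap, so it adds no support. In its annotation 62% of the exonic bases are shared with Gm49388 on the same strand and 62.4% with a transcript on the opposite strand, so its reads could be split between genes. The third gene, the processed pseudogene Gm9378, was at 0.607 to 1.23 TPM in WT and 0.184 to 0.425 TPM in Brd1+/- mice.

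Gm9378 was also 1 of 4 genes with an adjusted p under 0.1, with Brd1, Adat3 and Cox7b2, which were picked out after their values were seen. All 3 genes beside Brd1 had an adjusted p of 0.0653 (limma). Cox7b2 and Adat3 passed the filter on low values through the WT mice alone, so their p is no support for a difference. Cox7b2, a testis form of a cytochrome c oxidase subunit, was listed at 0 in 7 of 8 Brd1+/- mice and at 0.494 to 1.38 TPM in the WT mice. Adat3, a subunit of a tRNA adenosine deaminase, was listed at 0 in 7 of 8 Brd1+/- mice and in 1 WT mouse, and was otherwise at most 1.33 TPM. Of its exonic bases 92.0% are shared with Gm49322 on the same strand.

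Neither the partners of BRD1 nor the alternative scaffolds listed with them passed the test. The list of 12 genes holds Brd1 itself and the alternative scaffolds Brpf1, Brpf3 and Jade1 to Jade3 beside its partners. Of these, Brd1 alone passed a p of 0.01 and 8 of 12 were below 0. The median log2 fold change was -0.05 against -0.03 for all genes tested. Over 12865 tested protein coding genes of at least 1 TPM, the median was -0.05 and 68.8% were below 0. That share is not given for the fits without WT mice 5 and 8, so list counts from these fits are descriptions. Without WT mice 5 and 8, 8 of 12 were below 0 with a median of -0.04. Kat7, the HBO1 acetyltransferase, was at 37.9 ± 3.35 TPM in WT and 36.6 ± 3.14 TPM in Brd1+/- mice (SD, n = 8 each; log2 fold change -0.05, 95% interval -0.19 to 0.09). Kat6a (MOZ) was at 15.9 ± 1.6 and 15.3 ± 1.95 TPM, with an interval of -0.23 to 0.12. The paralogs Brpf1 and Brpf3, which fill the same scaffold place as BRD1, were at 15.2 ± 3.12 against 14.5 ± 1.45 TPM and at 11.5 ± 3.96 against 11.9 ± 4.48 TPM. Their intervals ran from -0.27 to 0.16 and from -0.41 to 0.48, so a rise of Brpf3 by up to 0.48 was not separable from none. Ing4, a reader subunit for methylated histone H3, had the largest positive value of the list, 0.37 (24.0 ± 6.70 against 30.4 ± 5.73 TPM, 95% interval -0.03 to 0.77).

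Among 24 other histone acetyltransferases and deacetylases, 1 was lower at a p under 0.01 and none higher, where 0.514% of all genes were lower. Of the 24, 17 were below 0, against 68.8% of the protein coding genes of at least 1 TPM. After median-of-ratios scaling, and also without WT mice 5 and 8, 12 were below 0. The lower gene was Hdac5, a class IIa deacetylase that shuttles between nucleus and cytoplasm with neuronal activity. It ranged from 86.6 to 124 TPM in WT mice (median 111) and from 82.1 to 103 TPM in Brd1+/- mice (median 92.3). All 8 Brd1+/- mice lay below the WT median, with WT mouse 6 the lowest of its group. The Brd1+/- mean was 83.8% of WT (log2 fold change -0.25, SE 0.07; limma adjusted p = 0.998; exact permutation p = 0.00497). Its p stayed under 0.01 in 8 of 12 alternatives, among them the fit without WT mice 5 and 8. It rose above 0.01 after median-of-ratios scaling (log2 fold change -0.21), after quantile normalization (-0.20) and with all 4 groups in a single fit, and its highest p over the 12 was 0.0215 by limma. Under vehicle Hdac5 was at 130 ± 21.4 TPM in WT and 108 ± 23.1 TPM in Brd1+/- mice (log2 fold change -0.28, and -0.14 with the cortical score as a covariate). Hdac1, Hdac2, Hdac3, Ep300 and Crebbp had log2 fold changes of -0.13, -0.15, -0.02, -0.10 and 0.01 under IMN and did not pass.

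The molecules that IMN binds did not separate the genotypes at these thresholds. The transporters themselves, Slc6a2 for noradrenaline and Slc6a4 for serotonin, were at most 0.0287 and 0 TPM and were not tested, and Slc6a3 for dopamine was at most 0.191 TPM. Of the other 19 targets, 0 passed a p of 0.01, 13 were below 0, and the median was -0.05. Protein coding genes of at least 1 TPM had 68.8% below 0 and a median of -0.05. After median-of-ratios scaling 10 of the 19 targets were below 0, and without WT mice 5 and 8 it was 7. The smallest p was that of Chrm1, the M1 muscarinic receptor, at 49.4 ± 9.02 TPM in WT and 41.4 ± 7.97 TPM in Brd1+/- mice (SD, n = 8 each; log2 fold change -0.25, 95% interval -0.52 to 0.02). Hrh2, a histamine receptor, was at 5.48 ± 0.883 and 4.69 ± 0.572 TPM, and Htr2a, the 5-HT2A serotonin receptor, at 13.4 ± 5.04 and 10.2 ± 3.56 TPM. Chrm4, the muscarinic receptor of striatal projection neurons, was at 92.9 ± 16.5 and 91.3 ± 17.9 TPM. Of 31 receptors and enzymes of serotonin, noradrenaline and dopamine, 0 passed and 21 were below 0, and 19 without WT mice 5 and 8. Drd2 was at 226 ± 47.6 TPM in WT and 229 ± 33.2 TPM in Brd1+/- mice.

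Immediate early genes, which neurons switch on within minutes to an hour of activity, gave the lowest median of the 11 functional lists. Of 36 tested, 29 were below 0, against 63.3% of all genes tested and 68.8% of protein coding genes of at least 1 TPM. Their median was -0.15. Arc alone passed a p of 0.01, and 7 were lower at a p under 0.05 with none higher, where 2.9% of all genes were lower and 1.02% higher at that level. After median-of-ratios scaling 24 were below 0 with a median of -0.11, and without WT mice 5 and 8 23 were below 0 with a median of -0.07. The adjusted p over all genes was 0.817 at its smallest (limma).

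Arc codes for a postsynaptic protein that draws AMPA receptors from the synapse. It ranged from 66.6 to 115 TPM in WT mice with a median of 87.1, and from 37.3 to 73.4 TPM in Brd1+/- mice with a median of 58.4. The groups overlapped slightly, with 5 Brd1+/- mice below every WT mouse and all 8 below the WT median. The means were 88.9 ± 16.4 and 56.9 ± 14.2 TPM (SD, n = 8 each; log2 fold change -0.65, SE 0.15; limma adjusted p = 0.817; exact permutation p = 0.000932). The log2 fold change was -0.64 with the cortical score as a covariate and -0.61 without WT mice 5 and 8, and each of the 12 alternatives and 16 fits without a single mouse kept its p under 0.01. Under vehicle Arc stood higher in both genotypes, at 206 ± 74.8 TPM in WT and 126 ± 40.3 TPM in Brd1+/- mice. The log2 fold change there was -0.66, and the difference between the 2 was 0.01 (95% interval -0.58 to 0.60). With the cortical score as a covariate the vehicle value was -0.22, and without WT vehicle mouse 7 it was -0.57.

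The next of the list by p were transcription factors of the same response. Egr3 was at 64.0 to 120 TPM in WT (median 92.9) and 42.4 to 83.0 TPM in Brd1+/- mice (median 69.9), a log2 fold change of -0.45 (SE 0.16). Npas4, which is induced by calcium entry in neurons, was at 13.8 to 25.1 TPM (median 17.1) and 6.93 to 20.7 TPM (median 11.9), with -0.55 (SE 0.20). Egr1, a zinc finger factor, was at 191 ± 44.1 and 153 ± 15.2 TPM (SD, n = 8 each; -0.29, SE 0.12). Fos was low in both, with medians of 8.52 and 5.26 TPM and a log2 fold change of -0.58 (SE 0.25). Without WT mice 5 and 8 the log2 fold changes were -0.40 for Egr3, -0.65 for Npas4, -0.38 for Egr1 and -0.43 for Fos. Their unadjusted p was then 0.0401, 0.00821, 0.0063 and 0.126 (limma). Klf10 and Dusp5 were the other members with a p under 0.05, at -0.35 and -0.23. The remaining 29 members had a p of 0.05 or more, among them Junb, Egr4 and Per1 with log2 fold changes of -0.09, -0.02 and 0.04. Bdnf was at 1.22 ± 1.85 TPM in WT and 0.364 ± 0.342 TPM in Brd1+/- mice, so its WT spread was larger than its mean.

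**Figure D4:**
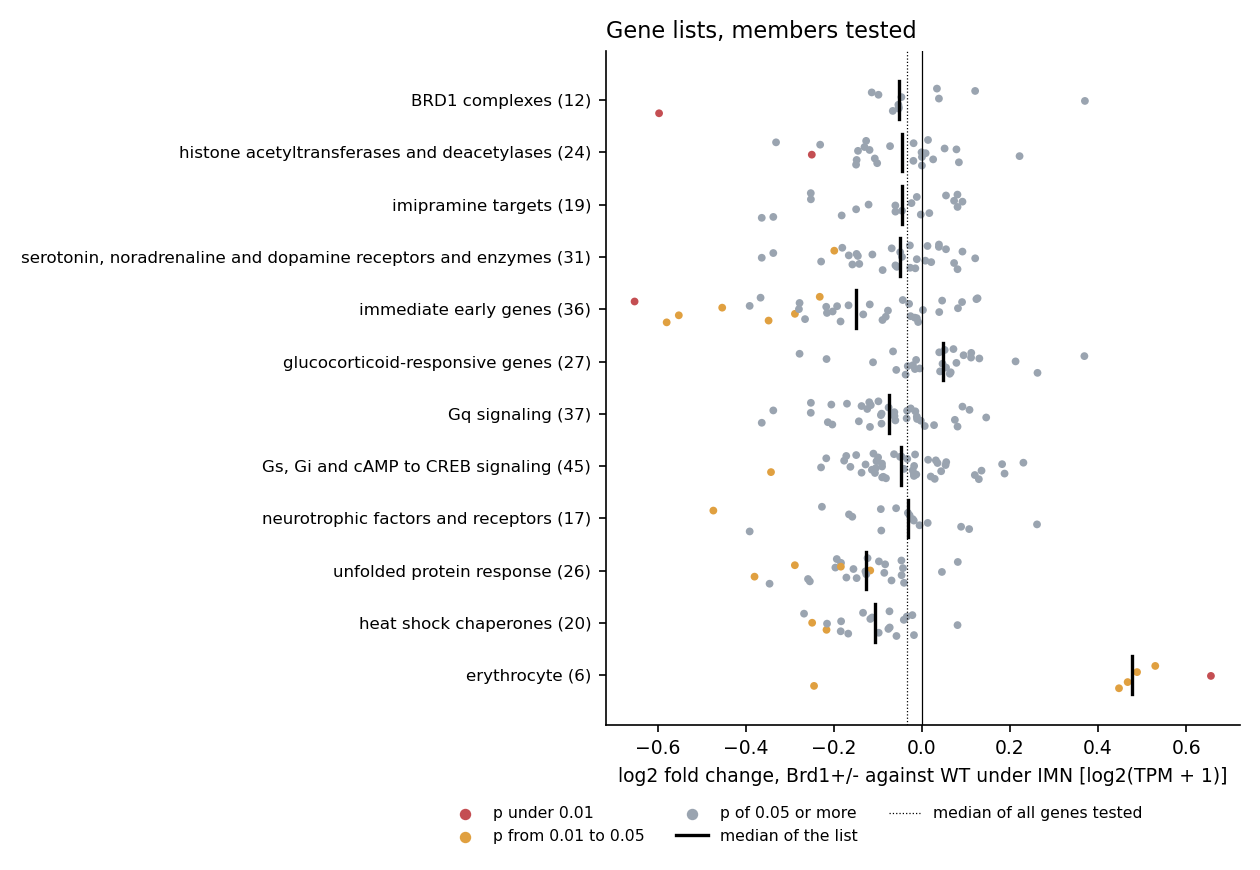
Log2 fold change of Brd1+/- against WT mice under IMN (horizontal axis) for each tested member of 12 gene lists (rows, number of members in brackets). Colours give the unadjusted limma p, black bars the median of each list, and the dotted line the median of all genes tested (-0.03). The immediate early genes have a median of -0.15 and the erythrocyte markers of 0.48, while the median of the other lists lies between -0.13 and 0.05.

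Stress-related lists gave no member at a p under 0.01. Of 27 glucocorticoid-responsive genes 11 were below 0, with a median of 0.05. After median-of-ratios scaling 5 were below 0 with a median of 0.09, and without WT mice 5 and 8 it was 7 with a median of 0.10. Sgk1, Fkbp5 and Tsc22d3 had log2 fold changes of 0.13, -0.04 and -0.01. Of 26 genes of the unfolded protein response 24 were below 0 with a median of -0.13, and 4 were lower at a p under 0.05, namely Hyou1, Xbp1, Pdia6 and Atf6, where 2.9% of all genes were. Xbp1, a transcription factor of that response, was at 65.4 ± 16.2 TPM in WT and 49.3 ± 10.3 TPM in Brd1+/- mice (SD, n = 8 each; log2 fold change -0.38, SE 0.17). Of 20 heat shock chaperones 19 were below 0 with a median of -0.11, with Hspa8 at 486 ± 79.1 and 416 ± 47.8 TPM. After median-of-ratios scaling, 23 of 26 and 16 of 20 members were below 0. Without WT mice 5 and 8, 18 of 26 and 14 of 20 members were below 0, with medians of -0.06 for both lists. Among signaling lists, 0 of 37 Gq genes passed a p of 0.01, 30 were below 0 and the median was -0.08. After median-of-ratios scaling 24 of these were below 0, and without WT mice 5 and 8 it was 23. Of 45 Gs, Gi and cAMP genes 0 passed and 31 were below 0, with a median of -0.05. Protein coding genes of at least 1 TPM had 68.8% below 0 and a median of -0.05. Of 17 neurotrophic factors and receptors 0 passed and 13 were below 0, with a median of -0.03. After median-of-ratios scaling 23 of 45 and 9 of 17 were below 0, and without WT mice 5 and 8 it was 25 and 9.

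Beyond the lists, the lower genes with the smallest p and a mean of at least 1 TPM came from several functions. Ccnd2, cyclin D2, which drives entry into the cell cycle, was at 37.9 to 71.3 TPM in WT (median 51.3) and 21.2 to 42.5 TPM in Brd1+/- mice (median 36.1). Its means were 52.2 ± 9.77 and 34.4 ± 7.5 TPM (SD, n = 8 each; log2 fold change -0.60, SE 0.14; limma adjusted p = 0.831; exact permutation p = 0.000932), and all 8 Brd1+/- mice lay below the WT median. Zfyve26, spastizin, which acts in the renewal of lysosomes, was at 10.6 ± 1.92 and 7.74 ± 1.2 TPM, and 6 Brd1+/- mice lay below every WT mouse.

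The remaining named lower genes differ in function. Mpp3, a scaffold of the membrane-associated guanylate kinase family, was at 29.6 ± 3.77 TPM in WT and 23.7 ± 2.11 TPM in Brd1+/- mice (SD, n = 8 each; log2 fold change -0.30, SE 0.08). Tmem198, a membrane protein of Wnt signaling, was at 36.5 ± 3.18 and 30.3 ± 3.02 TPM (-0.26, SE 0.07). In each of these 2 genes, 6 Brd1+/- mice lay below every WT mouse. Slc27a3, of the fatty acid transport protein family, was at 2.25 ± 0.774 and 1.19 ± 0.331 TPM (-0.55, SE 0.13). Fcgr2b, the inhibitory receptor for IgG on microglia and other immune cells, was at 2.52 to 3.37 TPM in WT mice and at 1.06 to 2.92 TPM in Brd1+/- mice. For Fcgr2b, 7 of 8 Brd1+/- mice lay below every WT mouse, while 10 microglia markers had a median log2 fold change of -0.05. Phf21b, a PHD finger protein, was at 7.45 ± 1.31 and 4.78 ± 1.59 TPM.

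Higher genes were fewer. With a p under 0.01, a mean of at least 1 TPM and a symbol that is not a predicted gene there were 9, namely 7 protein coding genes, the microRNA gene Mir6944 and Mir5117, which the annotation lists as a snoRNA. Depp1, a target of FOXO factors in autophagy, was at 1.09 to 1.92 TPM in WT (median 1.71) and 1.56 to 3.80 TPM in Brd1+/- mice (median 2.51), and 7 of 8 Brd1+/- mice lay above every WT mouse. Its log2 fold change was 0.53 (SE 0.13; limma adjusted p = 0.831; exact permutation p = 0.000932). Prom1, prominin-1, was at 8.27 ± 1.01 TPM in WT and 11.1 ± 2.03 TPM in Brd1+/- mice (SD, n = 8 each; 0.38, SE 0.11), also with 7 of 8 above. Cxcl14, a chemokine made by interneurons and other cells, was at 76.8 ± 9.46 and 92.2 ± 9.84 TPM (0.26, SE 0.08). Ctnna3, an alpha catenin of cell junctions, was at 0.909 ± 0.225 and 1.41 ± 0.231 TPM. Lpcat1, a lysophospholipid acyltransferase, was at 8.89 ± 4.32 and 13.5 ± 3.48 TPM, and Mis18a, which helps to load centromeric histone, at 3.58 ± 0.397 and 4.58 ± 0.764 TPM. Without WT mice 5 and 8 the p of Mis18a was 0.0143 at a log2 fold change of 0.29, against 0.28 with them, and with the cortical score as a covariate that of Lpcat1 was 0.012 at 0.63, the same value as without it (limma). With 1 mouse left out at a time, 5 of 16 fits kept the p of Lpcat1 under 0.01, 6 that of Mis18a and 13 that of Cxcl14.

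Entries for small RNAs have a short length in the annotation, which makes each read weigh much in TPM, and the values say nothing of a mature microRNA. Mir6976, a microRNA gene on the lower side, was at 2.70 to 6.97 TPM in WT mice and at 0 to 4.18 TPM in Brd1+/- mice, with 7 of 8 below every WT mouse (log2 fold change -1.23, SE 0.29). Mir5117 was at 0.573 to 0.985 TPM in WT mice and at 0.525 to 8.59 TPM in Brd1+/- mice, with 5 of 8 above every WT mouse (log2 fold change 1.5, SE 0.41). All 84 bases of Mir5117 lie in exons of Gas5 on the same strand, so its reads could be those of Gas5. The microRNA gene Mir6944 was at 0.633 ± 0.497 and 1.59 ± 0.924 TPM (SD, n = 8 each; 0.66, SE 0.21), and its p stayed under 0.01 in 11 of 16 fits without 1 mouse (limma).

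The seventh protein coding gene was Alas2, the first enzyme of heme synthesis in red cell precursors. It was listed at 0 in 2 WT mice and reached 1.92 TPM in WT mouse 5 (median 0.326), and it ranged from 0.824 to 1.83 TPM in Brd1+/- mice (median 1.43). Its log2 fold change was 0.66 (SE 0.21; limma adjusted p = 0.998; exact permutation p = 0.0174), and its limma p stayed under 0.01 in 8 of 16 fits without 1 mouse. The summed level of Hba-a1, Hba-a2, Hbb-bs and Hbb-bt was 163 to 321 TPM in WT mice (median 199) and 204 to 533 TPM in Brd1+/- mice (median 292). At a p under 0.05, 5 of the 6 erythrocyte markers tested were higher, where 1.02% of all genes were, and 1 was lower, where 2.9% were. The red cell membrane gene Slc4a1 was listed at 0 in all 16 mice. The erythrocyte score was 3.92 ± 0.258 in WT and 4.22 ± 0.233 in Brd1+/- mice (SD, n = 8 each; difference 0.293, exact permutation p = 0.0333, adjusted p = 0.366 over 11 scores). Over the 16 mice, Alas2 and the summed globin level correlated at 0.707. The part that red cells left in the punch had in the level of Alas2 was not tested.

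The 34 named genes are set beside the vehicle groups in the plot of both conditions. Of the 120 lower genes 115 were tested under vehicle, and 81 were lower there too (70.4%), against 72.9% of all 22656 genes tested in both. Of the 41 higher genes tested there, 20 were higher under vehicle (48.8%, against 27.1%). After median-of-ratios scaling of the vehicle groups, 66 of 115 were lower there (against 49.1% of all genes) and 26 of 41 higher (against 50.9%). A p under 0.01 in the same direction was met by 11 of the 115 lower genes (against 12.2% of all genes) and by 2 of the 41 higher ones (against 1.51%), and by no gene in the opposite direction. Without WT vehicle mouse 7 these counts were 12 and 1, and with the cortical score as a covariate of the vehicle fit they were 2 and 0. The 10 cortical markers had a median log2 fold change of -2.14 under vehicle, with Slc17a7 at -2.05 (SE 1.35), and the 14 striatal markers one of 1.56. Under IMN these medians were -0.15 and 0.02, and 0.66 and -0.12 without WT IMN mice 5 and 8. The difference of the cortical score between the vehicle groups was not tested.

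Besides Brd1, the genes named for a lower level in both conditions were Matk, Fmnl1, Phf23, Stau2, Gm42829, Ltbp3 and Tnnc1. Matk, a kinase that restrains Src family kinases, was at 83.4 to 106 TPM in WT and 60.4 to 86.2 TPM in Brd1+/- mice under IMN (log2 fold change -0.30, SE 0.08) and at 97.6 ± 16 and 74.7 ± 10.4 TPM under vehicle (-0.38). Fmnl1, a formin that builds actin filaments, was at 77.7 to 117 TPM and 67.3 to 77.9 TPM under IMN, with 7 Brd1+/- mice below every WT mouse (-0.28, SE 0.08), and at 130 ± 39.0 and 88.1 ± 15.8 TPM under vehicle (-0.52). Phf23, a PHD finger protein that reads methylated histone H3, was at 24.7 ± 4.81 and 16.6 ± 4.16 TPM under IMN (-0.57, SE 0.16) and at 27.8 ± 3.32 and 19.8 ± 6.64 TPM under vehicle (-0.53).

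Stau2, which carries RNA into dendrites, was at 82.9 ± 7.07 and 69.1 ± 9.48 TPM under IMN and at 92.1 ± 10.5 and 73.1 ± 8.97 TPM under vehicle. The predicted intronic transcript Gm42829 was at 3.02 ± 0.572 and 2.21 ± 0.318 TPM under IMN and at 3.84 ± 0.798 and 2.64 ± 0.242 TPM under vehicle. Ltbp3, a binding protein of latent TGF-beta, and Tnnc1, a troponin C of slow muscle, had log2 fold changes of -0.31 and -0.93 under IMN and of -0.63 and -2.16 under vehicle. Without WT IMN mice 5 and 8 the p of Stau2, Gm42829, Ltbp3 and Tnnc1 rose to 0.0239, 0.026, 0.0286 and 0.0381 (limma), with log2 fold changes of -0.22, -0.24, -0.23 and -0.55. Of the 16 fits without 1 mouse, 14, 13, 11 and 8 kept their p under 0.01. With the cortical score as a covariate under vehicle, the smallest p among Matk, Fmnl1, Phf23, Stau2, Gm42829, Ltbp3 and Tnnc1 was 0.0128. The vehicle log2 fold changes were then -0.33 for Matk, -0.24 for Fmnl1, -0.59 for Phf23, -0.22 for Stau2, -0.20 for Gm42829, -0.28 for Ltbp3 and -1.0 for Tnnc1.

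**Figure D5:**
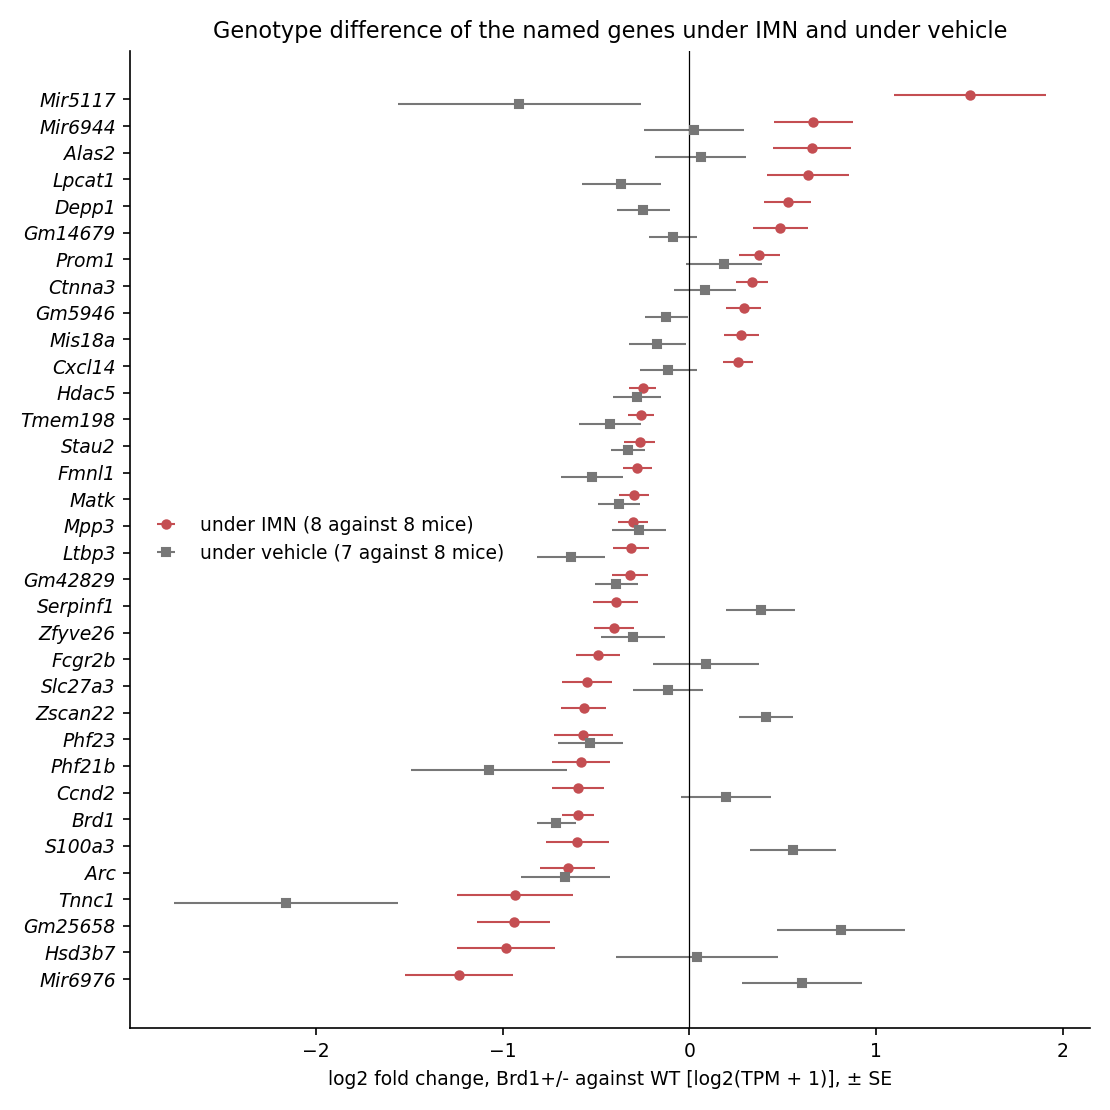
Log2 fold change of Brd1+/- against WT mice on the log2(TPM + 1) scale with its SE (horizontal axis) for the 34 named genes, under IMN (red, 8 against 8 mice) and under vehicle (grey, 7 against 8 mice). No covariate is fitted. Brd1, Arc, Matk and Hdac5 lie at similar values in both, and Zscan22, S100a3, Serpinf1 and Gm25658 lie on opposite sides of 0.

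Of the 164 genes, 29 had an interaction of genotype and treatment at a p under 0.01, where 3.74% of 25394 genes did, and 0 of all genes passed an FDR of 5% (limma; 4119 genes at an unadjusted p under 0.05). The interaction is fitted on the same IMN mice that chose the 164 genes, so this share is a description. Zscan22, a zinc finger protein, was at 7.77 to 14.9 TPM in WT (median 12) and 6.16 to 9.13 TPM in Brd1+/- mice (median 7.18) under IMN, and at 8.02 ± 1.41 and 11.1 ± 2.75 TPM under vehicle. It was lower under IMN by a log2 fold change of -0.57 and higher under vehicle by 0.41, an interaction of -0.97 (SE 0.19, adjusted p = 0.261 by limma). S100a3, a calcium-binding protein, Serpinf1, which codes for the secreted factor PEDF, and the predicted snoRNA Gm25658 were likewise lower under IMN at a p under 0.01, with log2 fold changes of -0.60, -0.39 and -0.94, and their values under vehicle were 0.55, 0.38 and 0.81. With the cortical score as a covariate, the vehicle values were 0.05, 0.15 and 0.59. Without WT IMN mice 5 and 8 the p of Serpinf1 under IMN was 0.0236 (limma) at a log2 fold change of -0.32, and 14 of 16 fits without 1 mouse kept it under 0.01. Depp1 and Lpcat1, higher under IMN, had values of -0.25 and -0.36 under vehicle. The pseudogenes Gm14679 and Gm5946 had log2 fold changes of 0.49 and 0.29 under IMN and of -0.09 and -0.12 under vehicle, and without WT IMN mice 5 and 8 the p of Gm14679 was 0.0109 (limma) at 0.47. Their vehicle values were 0.05 and -0.02 with the cortical score as a covariate, and 15 and 9 of 16 fits without 1 IMN mouse kept their p under 0.01.

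Genes beside Brd1 on chromosome 15 did not follow it. Of 37 genes tested within 1 Mb on either side, 0 had a p under 0.01, 21 were lower and 16 higher, and the median was -0.02. The smallest p was 0.0136, for Mapk12 (log2 fold change -0.53, SE 0.19; limma).

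No cell type score separated the genotypes under IMN after adjustment over the 11 scores. The striatal score was 8.25 ± 0.294 in WT and 8.27 ± 0.132 in Brd1+/- mice (exact permutation p = 0.892), and the cortical score 3.29 ± 1.38 and 3.18 ± 0.985 (SD, n = 8 each; exact permutation p = 0.850). The direction of both lists turned without WT mice 5 and 8. These 2 mice, both WT, were singled out by their high cortical scores, so leaving them out lowers the WT cortical level by construction. Brd1+/- mouse 4, with a cortical score of 4.35, stayed in. Cortical markers below 0 went from 8 to 2 of 10, with a median of 0.66 in place of -0.15, and striatal markers below 0 from 4 to 13 of 14, with a median of -0.12 in place of 0.02. Summed cortical markers ranged from 109 to 1346 TPM in WT and from 110 to 529 TPM in Brd1+/- mice. The smallest adjusted p over the 11 scores was the 0.366 of the erythrocyte score. Oligodendrocyte markers all lay above 0, 10 of 10 with a median of 0.20, and none passed a p of 0.05, with a score of 7.12 ± 0.645 in WT and 7.34 ± 0.835 in Brd1+/- mice (exact permutation p = 0.570). The difference of 0.214 was 0.0559 without Brd1+/- mouse 2 and 0.422 without Brd1+/- mouse 6. The first principal component of the 16 mice, with 22.7% of the variance over 18909 genes, had its largest positive loadings on Slc17a7, Tbr1 and Neurod6. The genotype means on it differed by -3.22 (exact permutation p = 0.757), where WT mice 5 and 8 lay at 47.8 and 27.8 and the other mice between -19.4 and 16.9.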

How the data were processed

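Female mice were given IMN or saline, and RNA of CPu punches was sequenced single-end on BGISEQ-500. Per the submitters' processing notes, reads were checked with FastQC, trimmed with Trimmomatic, aligned to GRCm38 with HISAT2 2.1.0 and quantified with StringTie 1.3.4. The authors deposited the result as 1 table of TPM for 52636 gene identifiers and 31 mice, whose column sums run from 999787 to 999918. The authors' own test used edgeR on counts, which is not applicable to TPM. Library depth is unknown, and the strand used in counting is not given in the sources used here, so reads of overlapping genes may be mixed. Symbols and positions for 52489 identifiers came from GENCODE M21, and the promoter from RefSeq.

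TPM were transformed as log2(TPM + 1). Genes above 0.1 TPM in at least 7 mice of a comparison were fitted with limma 3.58.1 (R 4.3.3; trend, Benjamini-Hochberg adjustment over all genes tested). Genotype was tested within IMN mice and within vehicle mice, and their difference as an interaction in a fit of all 4 groups. Single values were tested with exact two-sided permutation tests. For genes chosen by their limma p, the permutation p is unadjusted and repeats the same values, so it is no further support. Calls had a p under 0.01 or an FDR under 5%. The fits were tested on simulated data with 200 changed genes.

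Genes were named by a rule: Brd1, up to 12 genes per direction with the smallest p, members of a list with a p under 0.01, up to 8 genes called in both conditions, and up to 5 per direction with the smallest interaction p, all at a mean of at least 1 TPM and without predicted genes in the first group. Not every erythrocyte marker is named here. Other list members are shown for their role, and genes named after their values were seen are marked so. The comparison, the gene lists and the tests were chosen with earlier results of these data known. Alternatives were the pseudocount, the filter, scaling, the prior, sample weights, a mouse number block, covariates, and leaving out mice. Labels name separate mice, 1 library each.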

Additional observations from a re-analysis of the deposited data

Results flagged for a closer look

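In 7 of 94 groups of 8 values, 1 mouse lay far from the rest by Dixon's criterion, the gap to its nearest neighbour as a share of the whole range. Chance gives about 1 in 20. WT IMN mouse 5 had the lowest striatal score (gap share 0.564) and WT IMN mouse 6 the lowest thalamus and septum score (0.596). WT IMN mouse 6 was also lowest for Hdac5 (0.559), and WT IMN mouse 4 stood apart for Gm25658 (0.533). Among Brd1+/- IMN mice, mouse 7 stood apart for Fmnl1 (0.572), mouse 1 for Phf23 (0.623) and mouse 3 for Serpinf1 (0.579).

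The genotype difference departed between IMN and vehicle for 11 named genes at an unadjusted interaction p under 0.01 (limma), each with an adjusted p of 0.261. The p was 1.38e-05 for Zscan22, 0.000139 for Gm25658, 0.000314 for Mir6976, 0.000319 for Depp1, 0.000431 for S100a3, 0.00144 for Serpinf1, 0.00365 for Lpcat1, 0.00478 for Mir5117, 0.00722 for Gm14679, 0.00754 for Gm5946 and 0.00878 for Ccnd2. With the cortical score as a covariate, the interaction p was 0.0352 for Ccnd2, 0.022 for Gm14679 and 0.0321 for Gm5946, and without WT vehicle mouse 7 it was 0.0147 for Gm5946.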

How the results depend on the processing

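The log2 fold changes of the named genes kept their sign in all 396 values from the other settings and all 528 values without 1 mouse, and 45 and 65 of these no longer had a p under 0.01. The number of genes under the FDR was 0 with the cortical score as a covariate, with no filter, with the replicate block and without WT IMN mice 5 and 8, and 2 with a pseudocount of 0.1. Brd1 was then at -0.59, -0.60, -0.60 and -0.56 in the first 4 settings, with adjusted p of 0.0586, 0.0525, 0.474 and 0.364 (limma), and over all 12 alternatives its adjusted p ran from 0.00686 to 0.474. The count of genes with a p under 0.01 was 97 with a mean of at least 1 TPM. For the vehicle groups it was 5005 in a fit of all 4 groups, 437 with the cortical covariate and 6137 with sample weights, and for the interaction 261 with that covariate and 3458 with sample weights. The causes were not tested. The covariate in the vehicle and interaction fits and the fits without WT IMN mice 5 and 8 or WT vehicle mouse 7 were chosen after seeing the data. The thalamus and septum score changed sign with a pseudocount of 0.1 (-0.0227), and the first component with median-of-ratios scaling (0.0225).

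Leaving out each IMN mouse in turn gave log2 fold changes of Brd1 from -0.66 to -0.57, 127 to 252 genes with a p under 0.01 and 0 to 1 genes under the FDR. The difference in the first component ran from -6.95 to 6.95. Score differences ran from -0.0729 to 0.0611 for striatal, -0.314 to 0.207 for cortical, -0.0562 to 0.0628 for astrocyte, 0.0721 to 0.168 for choroid plexus, 0.231 to 0.344 for erythrocyte, 0.0559 to 0.422 for oligodendrocyte, 0.0414 to 0.209 for oligodendrocyte precursor, -0.19 to -0.0516 for interneuron, -0.0897 to -0.0247 for microglia, 0.0198 to 0.0699 for endothelium and mural and -0.0409 to 0.0534 for thalamus and septum markers. Mouse numbers did not pair the IMN mice: deviations of the 8 same-numbered pairs correlated at -0.196 to 0.205, 2 of them over 0.1, and 2 WT mice matched their own number best. With the replicate block, the fourth setting in which Hdac5 lost its call, its unadjusted p was 0.0103 (limma). TPM carry no depth, so counting error could not be given.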

Other observations

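Ccnd2 led to a look at other genes of dividing cells, with lists chosen after the values were seen and therefore given without a test of the lists. Of 30 cell cycle genes tested under IMN, 27 were below 0 (against 63.3% of all genes), with a median log2 fold change of -0.19. The mice overlapped widely in the score of this list, at 0.752 to 1.70 in WT and 0.763 to 1.27 in Brd1+/- mice. Members of a list can vary together between mice, so the counts are not independent. At a p under 0.01, 4 were lower in Brd1+/- mice (against 0.514% of all genes) and none higher (0.189%). Plk1, a mitotic kinase, was at 1.44 ± 0.298 TPM in WT and 0.831 ± 0.490 TPM in Brd1+/- mice, and Cenph, a centromere protein, at 1.03 ± 0.432 and 0.511 ± 0.169 TPM (SD, n = 8 each). Foxm1, a transcription factor of mitosis, and Cks2, a partner of cyclin-dependent kinases, had log2 fold changes of -0.44 and -0.46. The median level of the list was 0.779 TPM, so most members were near the lower end of what was fitted.

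Of 23 genes of neuroblasts and the neurogenic zone, 20 were below 0 (against 63.3% of all genes) with a median of -0.21. The score of this list overlapped between the groups, at 3.05 to 3.99 in WT and 2.91 to 3.57 in Brd1+/- mice. Beside Ccnd2, which prompted the list, Nrep and Igfbpl1 were lower at a p under 0.01 (against 0.514% of all genes). Nrep was at 50.9 ± 7.61 TPM in WT and 40.2 ± 6.54 TPM in Brd1+/- mice (SD, n = 8 each). Without WT mice 5 and 8 the medians were -0.15 for cell cycle and -0.20 for neuroblast genes. Under vehicle the medians were -0.28 and -0.30, with 25 of 27 and 16 of 22 tested members below 0. Of all genes tested in both conditions, 72.9% were lower under vehicle. Ccnd2 was at 0.20 there, and at 0.01 with the cortical score as a covariate.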
